A study of Mus musculus with 5 samples.

Results

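Cradd, Tle3 and Dlc1 are 3 of the 21000 protein-coding genes of the RefSeq annotation with a curated mRNA, and they were picked because many DNaseI hypersensitive sites (DHSs, stretches of chromatin open enough for the nuclease DNaseI to cut) of the hemangioblast lay near them and in no other list. They were selected on the number of hemangioblast-only distal regions for which each gene was the nearest, so these numbers are a description and carry no test. With no distance limit other genes ranked above Cradd and Tle3. Up to 100 kb from the TSS (transcription start site) both had 6 such regions, and no other gene had as many. Dlc1 had 5, as did Pax7, Pmepa1, Sfrp1, Tbx2 and Tbx3, so that it was 1 of 6 genes with the same value and was not ranked above the other 5. Just below, 15 genes had 4, among them Alk, Bmp2, Gli2 and Irx3, while 70 genes had 3, 309 had 2, 1727 had 1 and 18871 had 0.

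The lists came from DNaseI-seq of 5 populations made in culture from mouse embryonic stem (ES) cells of strain 129, all of which carry GFP as a reporter of Brachyury (Bry), a gene of early mesoderm. They were mesoderm (MES, Bry:GFP+ Flk1-), hemangioblasts (HB, Bry:GFP+ Flk1+), hemogenic endothelium (HE, Bry:GFP+ Tie2+ cKit+ CD41-), CD41+ hematopoietic progenitors (HP) and CD11b+ macrophages (MAC). Each stage had 1 list, which for MAC is labelled as Rep1 and Rep2 together, so n = 1 throughout and no difference between stages could be set against a spread between replicates. The lists held 21949 (MES), 24729 (HB), 33305 (HE), 17734 (HP) and 37456 (MAC) intervals with median widths of 800, 900, 1200, 900 and 600 bp, and they hold no read numbers, so the depth behind them is unknown from these values. ES cells were not analysed here, and "HB-only" means absent from the other 4 lists. Of the sorting markers, the promoter of Brachyury (T) had a DHS in MES and HB, that of Tek (Tie2) in HE, that of Kit in all lists but MAC, that of Itga2b (CD41) in HE and HP and that of Itgam (CD11b) in MAC, whereas the promoter of Kdr (Flk1) had one in all 5 lists, Flk1-negative MES included.

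The hemangioblast is the Flk1-positive mesodermal cell that can give rise to blood, endothelium and smooth muscle, and it passes through the hemogenic endothelium on the way to blood. DHSs mark promoters and the distal elements, such as enhancers, where transcription factors bind, and distal elements differ between cell types more than promoters do. The genes have unlike roles. Cradd (also called RAIDD) is an adaptor with a death domain and a caspase recruitment domain that joins caspase-2 to Pidd1. Tle3 is a co-repressor of the Groucho family, which has no DNA-binding domain of its own and is brought to genes by factors such as TCF/LEF and Hes proteins. Dlc1 is a GTPase-activating protein that binds tensins at focal adhesions.

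All coordinates are for mm10. Cradd (gene ID 12905) lies on the minus strand at chr10:95174739-95324138 and is 149 kb long. Tle3 (gene ID 21887) lies on the plus strand at chr9:61372326-61418497 and is 46.2 kb long. Dlc1 (gene ID 50768) lies on the minus strand at chr8:36567739-36953184 and spans 385 kb, with 3 curated transcription start sites (TSSs). A DHS was said to be in reach of a gene if it overlapped the gene body or was at most 100 kb from an annotated TSS, which gave stretches of 249 kb for Cradd, 200.04 kb for Tle3 and 540 kb for Dlc1. The stretches are of unequal length, and counts are therefore also given per 100 kb.

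As examples, the central 300 bp of 1 HB-only region per gene are printed from the plus strand of GRCm38.p6, with matches to the consensus motifs described further on in capitals. The region of each gene with the most different motifs in its central 300 bp was taken, so the printed regions are rich in motifs by choice. The Cradd sequence is chr10:95248377-95248676, in an intron of Cradd 75.2 kb from the TSS. Its capitals mark an octamer, a MEIS and an E-box motif, which 1.66, 26.8 and 42.1% of all distal regions hold in their central 300 bp. Over all HB-only distal regions the shares are 1.89, 28.9 and 44.9%. The Tle3 sequence is chr9:61310601-61310900, between genes and 61.6 kb upstream of the TSS. It holds 2 GATA motifs and 1 each of the TCF/LEF, RUNX and TEAD motifs, with shares over all distal regions of 18.2, 4.87, 25.7 and 19.5%. Over all HB-only distal regions these shares are 32.6, 10.4, 21.3 and 27.6%. The Dlc1 sequence is chr8:36672825-36673124, in an intron of Dlc1 59.0 kb from the nearest TSS. Its capitals mark an octamer, a TEAD and a RUNX motif.
Cradd HB-only region: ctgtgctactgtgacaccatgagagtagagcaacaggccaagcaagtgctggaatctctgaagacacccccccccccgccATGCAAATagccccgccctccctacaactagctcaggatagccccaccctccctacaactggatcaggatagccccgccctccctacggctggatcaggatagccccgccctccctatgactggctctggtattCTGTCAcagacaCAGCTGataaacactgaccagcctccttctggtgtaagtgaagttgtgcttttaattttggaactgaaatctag
Tle3 HB-only region: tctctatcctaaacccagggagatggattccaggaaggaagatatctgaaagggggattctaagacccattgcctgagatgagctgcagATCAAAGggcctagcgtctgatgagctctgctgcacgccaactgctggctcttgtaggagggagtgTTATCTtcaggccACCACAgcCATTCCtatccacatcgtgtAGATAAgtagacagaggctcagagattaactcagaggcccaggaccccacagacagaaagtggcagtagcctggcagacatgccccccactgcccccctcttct
Dlc1 HB-only region: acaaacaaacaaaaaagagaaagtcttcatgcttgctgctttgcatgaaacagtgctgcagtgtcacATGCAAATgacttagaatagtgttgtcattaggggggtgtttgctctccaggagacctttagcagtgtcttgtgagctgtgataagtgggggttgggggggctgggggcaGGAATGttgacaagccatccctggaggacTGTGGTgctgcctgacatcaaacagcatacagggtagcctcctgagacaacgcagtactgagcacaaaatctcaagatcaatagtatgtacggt

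The promoters of Cradd and Tle3, which had a DHS in every list, are shown for contrast as RefSeq gives them for GRCm38.p6, from 250 bases before to 50 after the start and in the direction of transcription. In the Cradd promoter, chr10:95324088-95324387, the capitals are 2 ETS motifs, a motif in 9.35% of the 32851 promoter stretches of that table. In the Tle3 promoter, chr9:61372116-61372415, they are 1 SOX motif, which 12.6% of those stretches hold. By symbol, 2 of the 3 genes, Cradd and Tle3, matched an entry in that table.
Cradd promoter: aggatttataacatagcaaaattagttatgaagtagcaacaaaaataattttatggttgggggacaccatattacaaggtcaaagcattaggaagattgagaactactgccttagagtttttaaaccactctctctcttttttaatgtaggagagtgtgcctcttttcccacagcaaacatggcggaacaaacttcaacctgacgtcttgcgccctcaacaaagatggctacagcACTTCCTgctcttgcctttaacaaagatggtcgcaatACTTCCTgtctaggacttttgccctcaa
Tle3 promoter: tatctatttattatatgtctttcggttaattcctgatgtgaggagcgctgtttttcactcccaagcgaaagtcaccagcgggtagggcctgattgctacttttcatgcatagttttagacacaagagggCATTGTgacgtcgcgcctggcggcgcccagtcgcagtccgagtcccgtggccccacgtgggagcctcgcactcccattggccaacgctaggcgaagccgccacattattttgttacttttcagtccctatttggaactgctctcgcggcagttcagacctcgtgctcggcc

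To compare the loci across the pathway, all DHSs in reach of each gene were counted in each list. Although all 3 genes were picked for HB sites, HB had the most DHSs at Tle3 only. At Cradd the longest list, MAC, had the most, and at Dlc1 it was HE. In each of the 3 loci HP, the shortest list, had fewer DHSs than MES, HB, HE and MAC. The HB counts include the regions that chose the genes, so their ranks among all genes are given as a description and nothing is read from them.

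In reach of Cradd, MES had 3 DHSs, HB 11, HE 9, HP 2 and MAC 15, where the median over all genes was 3, 4, 5, 3 and 6. Cradd was thus at or below the typical gene in MES and HP and above it in the other lists. Relative to 10000 listed sites, the order of HB and MAC turned over, with 4.45 in HB and 4.0 in MAC against 1.37, 2.70 and 1.13 in MES, HE and HP. Most of the DHSs were inside the gene, 9 of 11 in HB and 12 of 15 in MAC. By number, 12.2% of all genes had as many in HB and 8.61% had as many in MAC. Per 100 kb Cradd had 4.41 DHSs in HB and 6.01 in MAC, against medians of 1.76 and 2.5 over all genes, and ranked 3754 and 2702.

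In reach of Tle3, MES and HE had 11 DHSs each, HB 21, HP 4 and MAC 14. All 5 counts were above the median gene. The HB count was matched or exceeded by 0.471% of genes and ranked 60, and per 100 kb it was 10.5 against a median of 1.76 over all genes. Here most DHSs were outside the gene, with 5 of 21 inside it in HB and 4 of 14 in MAC. Relative to 10000 listed sites HB was highest as well, with 8.49, followed by MES with 5.01, MAC with 3.74, HE with 3.3 and HP with 2.26. The lead of HB at Tle3 rests on narrow sites. With only the DHSs at or above the median width of their list, the counts from MES to MAC were 3, 4, 5, 2 and 9, and with each list cut to its widest sites at the length of the shortest list they were 8, 6, 5, 4 and 5. MAC at Cradd and HE at Dlc1 had the most DHSs under both of these settings.

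In reach of Dlc1, MES had 8 DHSs, HB 13, HE 23, HP 5 and MAC 6. The HE count ranked 45 among all genes and was reached by 0.371% of them, whereas the HB count was reached by 7.47%. The length of the locus bears on these ranks. Per 100 kb Dlc1 had 4.26 DHSs in HE and 2.41 in HB, which ranked 5167 and 8485 among all genes. In MES, HP and MAC its density was 1.48, 0.925 and 1.11, below the median gene at 1.5, 1.46 and 2.50. The HE sites at Dlc1 had a median width of 1300 bp, where the whole HE list had 1200 bp. The HB sites had 1000 bp, where the whole HB list had 900 bp. HE sites covered 29.0 kb of the locus, against 11.5 kb in HB.

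**Figure D1:**
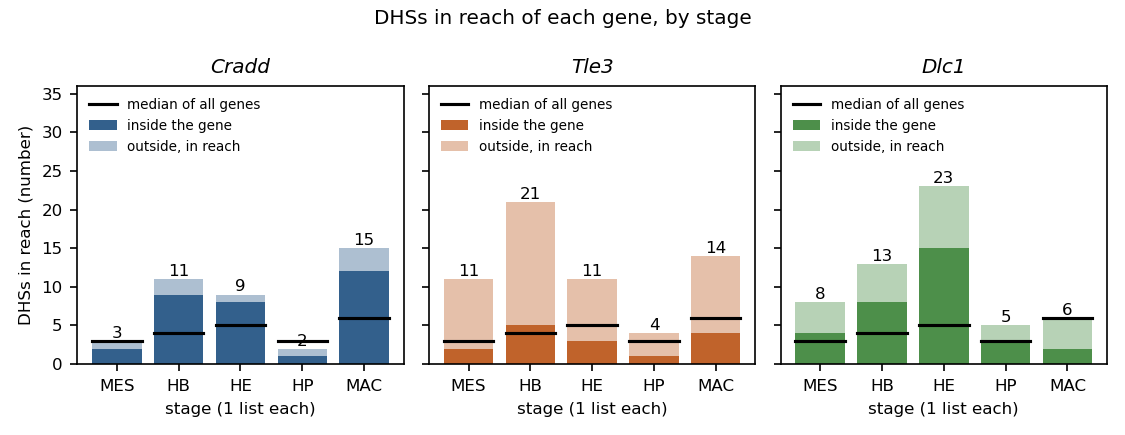
Number of DHSs in reach of Cradd, Tle3 and Dlc1 in each of the 5 lists (1 list per stage), split into those inside the gene (dark) and outside it (light); black lines give the median over all 21000 genes. HB is the tallest bar for Tle3 (21), MAC for Cradd (15) and HE for Dlc1 (23).

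The DHSs of the loci were then merged into regions, by setting each to 500 bp around its middle and joining windows whose overlap passed the minimum the study used, and each region was given the set of stages that held a window in it. Of the 45 regions of HB in reach of the 3 genes, 18 were HB-only, 7 of 11 at Cradd, 6 of 21 at Tle3 and 5 of 13 at Dlc1. Among all HB regions of the genome 15.7% were HB-only, and among those over 2 kb from a protein-coding TSS (distal) 26.5% were. In these loci all 18 HB-only regions were distal, of 38 distal HB regions. Since the rule used this contrast, nothing is read from these shares. The seventh region in reach of Cradd, at chr10:95398227-95399026, was in an intron of Socs2, 16.7 kb from the Socs2 TSS, and did not count for Cradd in the ranking.

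The 6 HB-only regions assigned to Cradd were all in introns of Cradd, between 12.4 and 96.2 kb downstream of its TSS. Their HB intervals were chr10:95227327-95227726, chr10:95245327-95246026, chr10:95248227-95248826, chr10:95258027-95258826, chr10:95289727-95290226 and chr10:95311027-95311526. None of the 9 distal HB regions at Cradd was shared with HE or HP, 1 was shared with MES and 1 with MAC. Cradd was picked for unshared HB regions, and matching shares over all distal HB regions are not given here. Nothing is therefore read from these counts. Of the 27 regions in reach, 9 were MAC-only (33.3%, against 31.0% of all regions of the genome), 4 HE-only (14.8% against 17.1%) and 3 of HE and MAC (11.1% against 3.48%). Inside the gene lay 7 of the 9 MAC-only regions, and the other 2 had Socs2 as the nearest gene. The 2 regions listed in all 5 stages were at the promoters of Cradd and Socs2.

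The HB-only regions at Tle3 lay on both sides of the gene. Those at chr9:61310401-61311100, chr9:61325701-61326300, chr9:61337101-61337600 and chr9:61352901-61353500 were 61.6, 46.3, 35.0 and 19.1 kb upstream of the TSS, with the second in an intron of the non-coding gene Gm34264. The region at chr9:61404301-61404800 was in an intron of Tle3 32.2 kb downstream, and the last, at chr9:61457001-61457500, was 84.9 kb downstream and beyond the gene. Of the 21 HB regions 10 were also in MES, 7 in HE, 5 in MAC and 4 in HP when compared as 500 bp windows. By overlap of the deposited intervals themselves the numbers were 10, 9, 6 and 4. The 2 added for HE come from 1 wide HE interval. It overlaps the HB regions at the promoter and 1.71 kb upstream of it, while its middle falls between them. The 1 added for MAC is an HB region 12.8 kb downstream of the TSS, which a MAC interval overlaps. Matching shares over all HB regions of the genome are not given here, so nothing is read from these counts. A distal region 49.8 kb upstream, in Gm34264, was listed in all 5 stages, and 1 at 10.9 kb upstream in all but MAC. Of the 34 regions in reach, 8 were MAC-only (23.5%, against 31.0% of all regions of the genome) and 3 HE-only (8.82% against 17.1%). Another 4 were of MES and HB (11.8% against 4.72%) and 4 of HB and HE (11.8% against 1.91%).

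At Dlc1, 4 of the 5 HB-only regions were in introns, at chr8:36608425-36609524, chr8:36672725-36673224, chr8:36677725-36678624 and chr8:36700725-36701224. The fifth, at chr8:36540525-36540924, was beyond the 3' end of the gene. All lay in the part of the locus from the middle TSS to the 3' side. The upstream part held none: between the middle and the upstream TSS, 219 kb apart, leaving out DHSs within 1 kb of either, MES, HB and MAC had 0 DHSs, HP had 1 and HE had 6. HE-only regions were the most frequent pattern at Dlc1, with 14 of 34 regions (41.2%) against 17.1% of all regions of the genome, and 10 of the 14 were in introns of Dlc1.

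**Figure D2:**
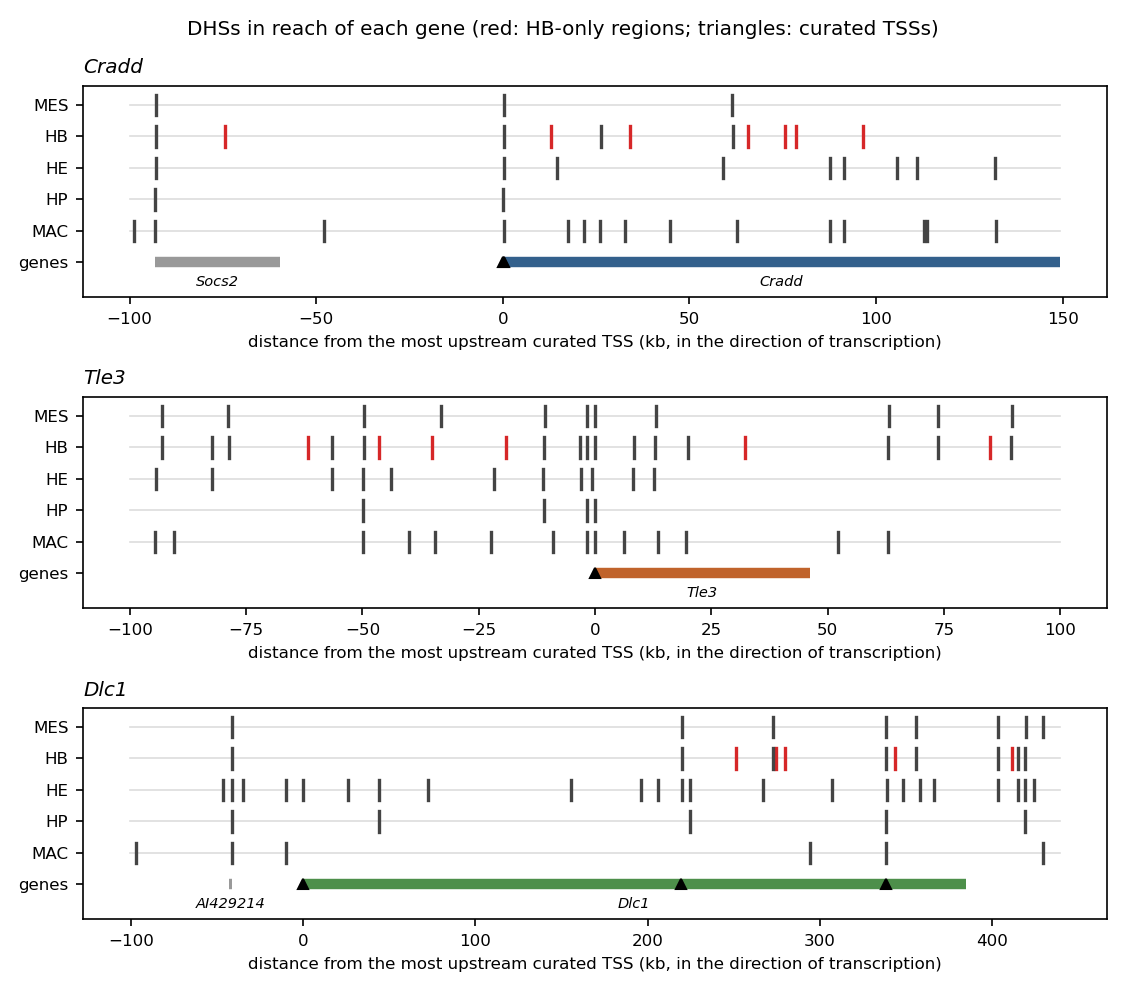
Positions of the DHSs in reach of Cradd, Tle3 and Dlc1 in each list, as distance in kb from the most upstream curated TSS in the direction of transcription. Each tick is 1 DHS, red ticks are the 18 HB-only regions, coloured bars are the 3 genes, grey bars are protein-coding neighbours with a TSS in reach, and triangles are curated TSSs. Of the HB-only ticks, 6 of 7 in the Cradd panel are in introns of Cradd and 1 is in Socs2, while the others stand on both sides of Tle3 or keep to the 3' part of the Dlc1 locus.

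Promoters were compared next. All 3 genes had a DHS within 1 kb of a TSS in all 5 lists, as had 43.4% of all genes. By list, MES had one at 57.2% of genes, HB at 58.9%, HE at 61.7%, HP at 50.1% and MAC at 50.2%. With only the DHSs at or above the median width of their list, Tle3 kept a promoter DHS in 2 lists, whereas Cradd and Dlc1 kept theirs in 5. The Cradd promoter DHS was 1000 bp wide in MES, HB and HP, 1600 bp in HE and 800 bp in MAC. That of Tle3 was narrowest in MES with 300 bp, followed by HB with 500 bp, HP with 600 bp and MAC with 700 bp. In HE it was 2300 bp, and that interval also took in a separate DHS that the other lists have 1.71 kb upstream of the TSS.

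Dlc1 differed between its 3 curated TSSs, which are those of isoforms with different first exons. The downstream TSS, at position 36613943, had a DHS over it in all 5 lists, which was 1000 bp wide in MES and 1300 bp in HB, widest in HE at 1900 bp, and 1200 and 800 bp wide in HP and MAC. The middle TSS, at 36733054, had one in MES (600 bp, ending 60 bases from the TSS), HB (1100 bp) and HE (1200 bp), and none within 1 kb in HP or MAC. The upstream TSS, at 36952442, had one in HE only, of 1500 bp. In MES, HB and HP the nearest DHS to it was over 40 kb away, at 40.8, 40.6 and 40.7 kb, and that one lay at the promoter of the neighbouring gene AI429214. In MAC the nearest was 9.78 kb away. The number of Dlc1 start sites with a DHS was thus 2 in MES and HB, 3 in HE and 1 in HP and MAC.

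**Figure D3:**
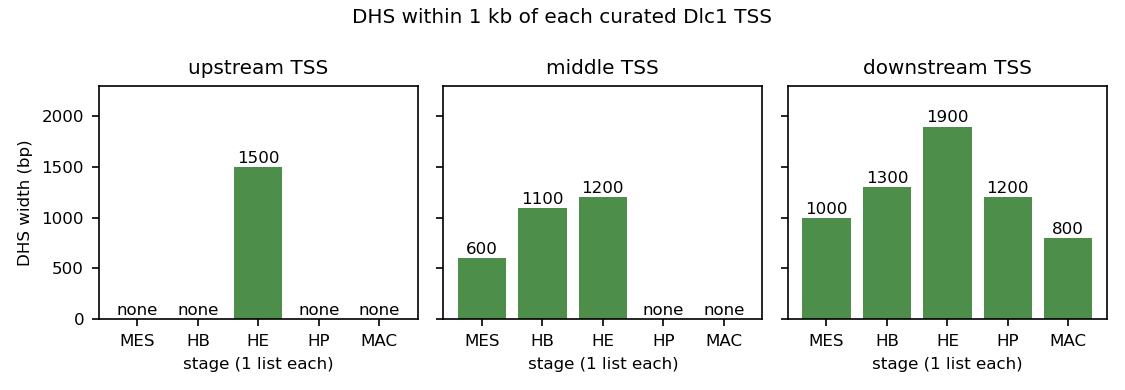
Width in bp of the DHS within 1 kb of each of the 3 curated Dlc1 TSSs, in each list (1 list per stage); "none" marks lists with no DHS within 1 kb. The downstream TSS has a DHS in all 5 lists, the middle one in MES, HB and HE, and the upstream one in HE.

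Genes other than the 3 may own some of these sites. Protein-coding genes are here those with a curated mRNA. In reach of Cradd the only other protein-coding TSS was that of Socs2, an inhibitor of cytokine signalling, at chr10:95383903-95417321 and 91.1 kb away. Its promoter had a DHS in all 5 lists, and it was the nearest gene of 4 of the 27 regions in reach, with Cradd nearest to the other 23. In reach of Dlc1 it was AI429214, at chr8:36993575-36995533 and 40.4 kb away, also with a promoter DHS in all 5 lists. Of the 34 regions in reach of Dlc1, 26 had Dlc1 as the nearest gene, 4 AI429214 and 4 Trmt9b, whose TSS is 106 kb away. No other protein-coding TSS was in reach of Tle3, and all 34 of its regions had it as the nearest gene, with Uaca 534 kb and Rplp1 542 kb away. Annotated genes outside the set of protein-coding genes with a curated mRNA also had a TSS in reach. There were 8 at Tle3, 3 at Cradd and 2 at Dlc1. At Tle3 HB sites lay in introns of B930092H01Rik, Gm34264 and Gm34322. At Cradd a MAC-only region lay in an exon of 5730420D15Rik. At Dlc1 HE-only regions lay in an exon and an intron of G630064G18Rik. The lists hold no contacts between sites and promoters, so which gene a site acts on was not tested.

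The HB-only sites were narrow. Their HB intervals had a median width of 600 bp at Cradd (400 to 800), 550 bp at Tle3 (500 to 700) and 500 bp at Dlc1 (400 to 1100), whereas HB intervals shared with another list had 950, 700 and 1100 bp. Over the genome the medians were 600 bp for HB-only and 1000 bp for shared HB regions, and the median of the 18 was 550 bp. Only 2 of the 18, both at Dlc1, with 1100 and 900 bp, were as wide as the median interval of the HB list, 900 bp, or wider. Of the 27 shared ones 13 were. Heights and read numbers, which would tell how strong a site was, are not part of the lists.

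**Figure D4:**
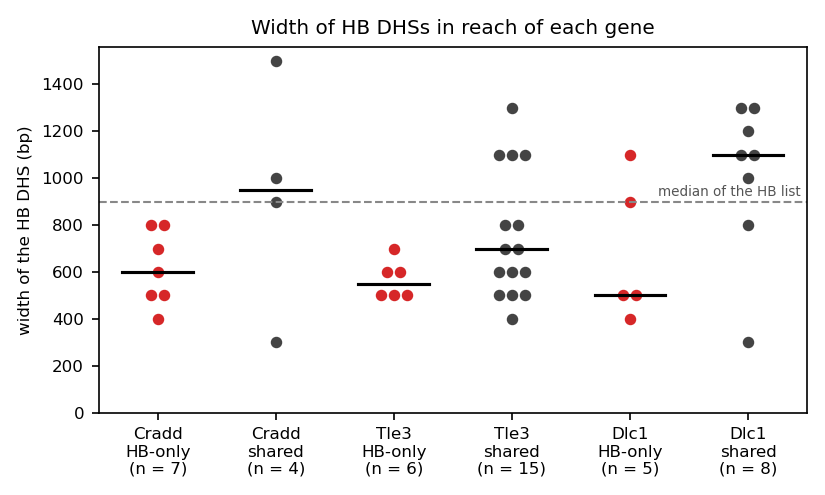
Width in bp of each HB interval in reach of Cradd, Tle3 and Dlc1, for regions of the HB list only (red) and for regions shared with another list (black); each point is 1 interval, short bars are medians and the dashed line is the median of the HB list. The HB-only medians (600, 550 and 500 bp) lie below the shared ones (950, 700 and 1100 bp).

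A site can be absent from a list while one close by is present. No interval of another list overlapped any of the 18 HB-only intervals, but 14 of the 18 had one within 10 kb, and the median distance over the 18 was 3.45 kb. Over all 3438 HB-only distal regions 61.2% had one within 10 kb, the median was 6.55 kb and 232 touched or overlapped one. The nearest was 100 bases from a Tle3 site (chr9:61337101-61337600), in MAC. At Cradd the smallest distance was 816 bases, to an HE interval, and at Dlc1 870 bases, to a MES interval. The largest were 17.1, 12 and 15.1 kb. The neighbouring list was HE for 9 of the 18, MAC for 6 and MES for 3, where over all HB-only distal regions it was HE for 48.9%, MAC for 26.4%, MES for 19.9% and HP for 4.80%.

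To find what the HB-only sites share that the ranking did not use, base composition and 13 motif families were looked up in their central 500 bp. GC content had a median of 50.2% at Cradd, 53.0% at Tle3 and 41.8% at Dlc1, against 50.6% over all HB-only regions. The share of bases marked as repeats was 11.8, 5.7 and 14.6%, against 8.8%. Median GC content was thus lowest at Dlc1.

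The motifs were exact strings, searched on both strands and allowed to overlap each other. They were for TEAD factors CATTCC, for GATA factors AGATAA, for T-box factors AGGTGTGA, for TCF/LEF factors CTTTGAT, for SOX factors ACAATG, for FOX factors TGTTTAC, for RUNX factors TGTGGT, for ETS factors ACTTCCT, for AP-1 TGANTCA, for octamer-binding factors ATGCAAAT, for ZIC factors CAGCAGG, for MEIS factors TGACAG and for E-box factors either CAGATG or CAGCTG. Each of the 18 regions held at least 1 of them, as did 97.4% of all HB-only distal and 97.3% of all distal regions, so nothing is read from that count. A match describes the sequence and is not a bound site.

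GATA, the family of Gata2, which acts in early blood formation, was in 4 of 6 regions at Tle3, 1 of 7 at Cradd and 2 of 5 at Dlc1, or 38.9% of the 18. It was in 41.8% of all HB-only distal regions and in 27.3% of all distal regions. TEAD, whose factors answer to the Hippo pathway, was in 3 of 6 regions at Tle3, 1 of 7 at Cradd and 2 of 5 at Dlc1, or 33.3%, against 36.4 and 29.3%. T-box, the family of Brachyury, was in none of the 18, where 6.78% of all HB-only and 2.54% of all distal regions hold it. For GATA and TEAD the share in the 18 was near that of all HB-only regions in the central 500 bp.

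Other motifs were spread unevenly over the loci, with 5 to 7 regions in each. MEIS was in 5 of 7 regions at Cradd, 2 of 6 at Tle3 and 2 of 5 at Dlc1, and E-box in 6, 2 and 3. Over all HB-only regions they were in 42.2 and 60.2%, against 50.0 and 61.1% of the 18. In the central 200 bp the order turned over, with MEIS in 16.7% of the 18 against 20.6% and E-box in 27.8% against 33.1%. ZIC was in 3 of 7 at Cradd and in none at the other genes, with 28.1% over all HB-only regions. The octamer was in 2 regions at Cradd and 1 at Dlc1, 16.7% of the 18, against 3.00% over all HB-only and 2.68% over all distal regions. Both the ZIC and the octamer counts rest on 3 regions in all. RUNX was in 3 regions of the 18 (16.7% against 32.8 and 37.3%), ETS in 3 (16.7% against 14.0 and 26.1%), SOX in 2 (11.1% against 19.1 and 25.2%), TCF/LEF in 2 (11.1% against 14.6 and 7.78%), and AP-1 and FOX in 1 each (5.56% against 15.4 and 27.2% for AP-1, and against 6.37 and 7.53% for FOX).

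**Figure D5:**
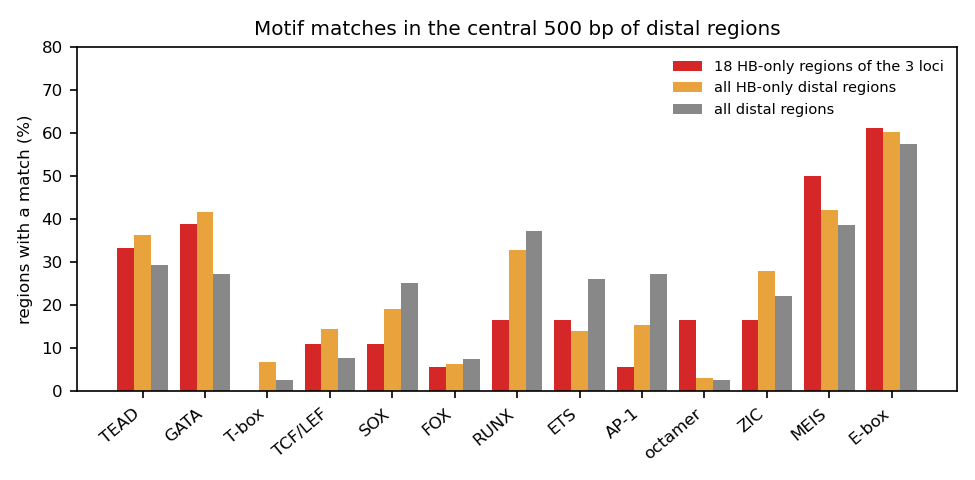
Share in percent of regions with a match to each of 13 motif families in the central 500 bp, for the 18 HB-only regions of the 3 loci (red), all 3438 HB-only distal regions (orange) and all 52345 distal regions (grey). E-box is the most frequent family in each set, T-box is at 0 in the 18, and the octamer is at 16.7% in the 18 against 3.00 and 2.68%.

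The partners of the 3 proteins were looked up in lists chosen with earlier results of these data known. Of 8 genes of the death domain and caspase-2 pathway, 7 had a promoter DHS in MES, HB and HP and all 8 in HE and MAC, where from MES to MAC 57.2, 58.9, 61.7, 50.1 and 50.2% of all genes had one. The exception was Casp8, the initiator caspase of death receptors, which had one in HE and MAC. No HB-only distal region had any of the 8 as its nearest gene, including Casp2 and Pidd1, the direct partners of Cradd, and the same held for 18871 of the 21000 genes. Their median number of DHSs in reach was 4, 5, 6.5, 4.5 and 12 in that order, against 3, 4, 5, 3 and 6 over all genes.

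Of 12 Groucho family genes and partners found in the annotation, 10 had a promoter DHS in MES, HB and HE, 9 in HP and 7 in MAC, against the same shares of all genes as above, of which that in MAC was 50.2%. Tcf7 and Hes1 had one in all lists but MAC, and Lef1, a DNA-binding partner of Groucho proteins, in MES, HB and HE. Among the other Tle genes, Tle1, Tle4 and Tle6 had one in all 5 lists. Tle2 and Tle5 had none within 1 kb in any list. The nearest was 3.26 kb from the curated Tle2 TSS and 4.58 kb from that of Tle5 in HB. HB-only distal regions were nearest to 4 of the 12, Hes1 (3), Tcf7l2 (2), Lef1 (1) and Ctnnb1 (1), against 10.1% of all genes, and to none of the other Tle genes. The median number of DHSs in reach was 6, 7.5, 7, 4 and 5.5 from MES to MAC, against 3, 4, 5, 3 and 6 over all genes. Tle2 and Tle5, with curated TSSs at 81575287 and 81559444 of chromosome 10, overlap in reach and share sites.

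The list for Dlc1 had 13 genes, its relatives, focal adhesion genes and other partners. From MES to MAC 11, 12, 13, 10 and 11 of them had a promoter DHS, against 57.2, 58.9, 61.7, 50.1 and 50.2% of all genes, and 9 of the 13 had one in all 5 lists, against 43.4%. The other 4 were Cav1, which makes caveolae in endothelium and had one in HE only, Stard13, a relative of Dlc1, with one in all lists but MAC, and the tensin genes Tns1, with one in all but HP, and Tns3, with one in HB, HE and MAC. HB-only distal regions were nearest to 3 of the 13, against 10.1% of all genes. These were Stard8, another relative of Dlc1, and Tns1, with 3 each, and Cdc42, a small GTPase that acts on the actin cytoskeleton, with 1. The median number of DHSs in reach was 5, 7, 10, 5 and 10, against 3, 4, 5, 3 and 6 over all genes.

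Last, the genes whose 5 counts were most like those of each member were found by the sum of absolute differences over the lists. For Cradd they were Grap2, with 3, 10, 10, 5 and 16 DHSs from MES to MAC (a sum of 6), Gramd1a and Itpr1 (8 each). For Tle3 they were Fdxr, with 13, 18, 13, 4 and 13 (8), Grin2c (9) and Fads6 (10), which overlap in reach on chromosome 11 and share sites. For Dlc1 they were Hoxa3, with 10, 13, 23, 4 and 5 (4), Hoxa7 (5) and Hoxa6 (6), which likewise share the sites of 1 cluster on chromosome 6. Length in reach was not matched. It was 233 kb for Hoxa3 and 200 kb for Hoxa7 and Hoxa6, against 540 kb for Dlc1. Grap2, Gramd1a and Itpr1 had 251, 207 and 438 kb, against 249 kb for Cradd. Fdxr, Grin2c and Fads6 had 207, 200.3 and 200.2 kb, against 200.04 kb for Tle3. HB-only distal regions were nearest to Grin2c (2) and Itpr1 (1) and to none of the other 7 genes.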

How the data were processed

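DNaseI-seq of 5 ES-derived populations was compared with 1 list of DHSs per stage. As their methods state, the authors trimmed reads with CutAdapt, aligned them to mm10 with Bowtie, removed duplicates with Picard and called DHSs with DFilter in bins of 100 bp. The labels also name HOMER, and versions were not given in the sources used here. Each deposited interval has a start and an end in bp, with no score, height or read number, so that a longer list may hold more sites for reasons that cannot be told apart, and an unlisted site is not shown to be closed. The midpoint of an interval stood in for its summit.

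Gene models and sequences were those of RefSeq GRCm38.p6, which has the primary chromosomes of mm10. Following the study, windows of 500 bp were merged where they overlapped by the minimum the study used, giving 68846 regions, of which 52345 had their centre over 2 kb from a curated protein-coding TSS (distal). Of these 3438 were HB-only, and each was assigned to the gene of the nearest TSS up to 100 kb away. Counting in reach used any overlap, and all annotated TSSs. Coordinates are 1-based. The members and the gene and motif lists were chosen with earlier results of these data known. Named were the 3 genes, genes of like rank, protein-coding neighbours in reach, the 3 genes with the most similar counts and the partner lists. Some members of the Dlc1 list are counted but not reported by name here. With 1 list per stage no test was made. The alternatives changed the reach, the TSS set, the merging, the promoter distance, the distance limit, the width of the DHSs used and the motif window. Python 3.11.15, numpy 2.4.6, pysam 0.24.0 and matplotlib 3.10.9 were used, and merging and counting were tested on simulated intervals.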

Additional observations from a re-analysis of the deposited data

How the results depend on the processing

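Of 139 alternative values, 83 stayed within 1.5 times the reported one and 56 moved further, of which 5 are motif counts in the central 200 bp (MEIS 3, E-box 5, ZIC 1, TCF/LEF 1 and FOX 0). Limiting each list to DHSs at or above its median width left Cradd 3 in HB, 5 in HE and 9 in MAC, and gave 1 HB-only region in reach and 1 nearest to it. At Tle3, MES kept 3, HB 4, HE 5, HP 2 and MAC 9, and there were 2 HB-only regions in reach, 2 nearest and a promoter DHS in 2 stages. At Dlc1, MES kept 2, HB 8, HE 14, HP 3 and MAC 3, with 2 HB-only regions in reach and 2 nearest. Of the HB-only regions named in the text 0 remained at Cradd, 0 at Tle3 and 2 at Dlc1. Those counted at Cradd and Tle3 were regions shared with another list whose partner DHS was dropped. Under this setting Cradd ranked 153 by HB-only distal regions, tied among 996 genes, and Tle3 and Dlc1 ranked 24, tied among 129.

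Taking from each list its widest DHSs, up to the length of the shortest list, left Cradd 6 in HB, 5 in HE and 9 in MAC, with 3 HB-only regions in reach and 2 nearest. It left Tle3 6 in HB, 5 in HE and 5 in MAC, and gave 1 HB-only region in reach, 1 nearest and a promoter DHS in 3 stages. It left Dlc1 14 in HE and 2 in MAC, and gave 3 HB-only regions in reach and 3 nearest. Of the HB-only regions named in the text 3 remained at Cradd, 0 at Tle3 and 2 at Dlc1. The ranks were 37 for Cradd, 186 for Tle3 and 8 for Dlc1, tied among 149, 1152 and 29 genes.

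A reach of 50 kb left 1 DHS in HP at Cradd, 6 in MES and 12 in HB at Tle3, and 5 in MES at Dlc1. Counting inside the gene left 1 in HP at Cradd. At Tle3 it left 2, 5, 3, 1 and 4 from MES to MAC, with 1 HB-only region. At Dlc1 it left 4, 8, 15, 3 and 2 from MES to MAC. Curated TSSs, promoter distances of 100 bp or 2 kb, a merging overlap of 250 bp, merging of the deposited intervals and no upper limit on distance moved no count by over 1.5 times, though with no limit the ranks were 9, 3 and 20 for Cradd, Tle3 and Dlc1 (tied among 11, 6 and 20 genes), and with 250 bp they were 2, 1 and 6 (among 4, 1 and 3). The picking of these genes thus depends on narrow DHSs and on the distance limit. With 1 list per stage and no read numbers, what depth adds to these counts was not tested.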
